A study of Rattus norvegicus with 9 samples.

Results

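The genes described here were taken as a set of Paneth cell genes. They are 7 alpha-defensins (Defa5, Defa6, Defa7, Defa8, Defa10, Defa11 and Defa24), the lysozyme Lyz2, the metalloprotease Mmp7 and the phospholipase Pla2g2a. They were chosen by name, and all 10 were found among the 17120 genes of each of 2 deposited tables of FPKM (sequenced fragments divided by transcript length and by the size of the library). Of the 10, 6 reached 1 FPKM in some library. RNA was sequenced from ileum, the distal small intestine. All rats were of the Otsuka Long-Evans Tokushima fatty strain, in which obesity and diabetes develop and the type A cholecystokinin receptor is missing, and no other strain was analysed here. The labels give 3 groups of 3 at 1 month: Roux-en-Y gastric bypass (RYGB) with FDG decreased, RYGB with FDG increased, and a sham operation. In Roux-en-Y bypass food passes from a reduced stomach straight into the jejunum. The labels neither spell out FDG nor give ages or say that samples come from separate animals, so the spread behind each p-value is that of these samples and may be technical.

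Paneth cells sit at the base of the crypts of the small intestine and secrete granules of antimicrobial protein into the lumen. Alpha-defensins are short cationic peptides that damage bacterial membranes and are made as precursors. In mice Mmp7, also called matrilysin, cuts those precursors to the active form, while lysozyme breaks bacterial cell walls and the secreted phospholipase Pla2g2a attacks bacterial membranes. In mice, Paneth cells and macrophages use separate lysozyme genes, Lyz1 and Lyz2.

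The RYGB table holds FDG-decreased and FDG-increased libraries, and the sham table holds FDG-increased and sham libraries. The tables were scaled separately, and no test was run across them. FDG-increased replicates 1 and 2 of the RYGB table also stand in the sham table under other numbers, where 99.985% and 99.941% of genes above 0 lay within 1% of a constant factor. The sham table's remaining FDG-increased library, called library X here, matches no column of the RYGB table, so that there are 4 distinct FDG-increased libraries against 3 in the labels. Replicate numbers and lanes are given here as the RYGB table numbers its columns, which match the titles in the labels. The sham table numbers them otherwise, and whether replicate 3 of the RYGB table or library X is the sample labelled replicate 3 is not settled, so the lane of either and its pairing by number are uncertain. Read depth is unknown. The sum of FPKM ran from 465697 to 864511 per library, with 10332 to 10892 genes at 1 FPKM or more. Sham replicate 1 stands apart from the other sham libraries in regional genes: Fabp6, which carries bile acids in ileal enterocytes, had 22.6 FPKM there and 8375 and 11347 FPKM in sham replicates 2 and 3. Lct, the lactase found mainly in jejunum, had 253 FPKM there and 8.60 and 0.317 FPKM in sham replicates 2 and 3.

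Promoter sequences of RefSeq (build GRCr8, 250 bases before to 50 after the start of the gene) were held for 4 of the 10 members: Lyz2, Mmp7, Pla2g2a and Defa11. They are shown with those of Defa9 and RatNP-3b, other alpha-defensin genes, because these genes span the range of levels from near 0 to 7562 FPKM. Capitals mark CTTTGA, the core of the site bound by TCF/LEF factors of Wnt signalling, on either strand (TCAAAG on the strand shown).
Lyz2, chr7:54797962-54798261, strand -: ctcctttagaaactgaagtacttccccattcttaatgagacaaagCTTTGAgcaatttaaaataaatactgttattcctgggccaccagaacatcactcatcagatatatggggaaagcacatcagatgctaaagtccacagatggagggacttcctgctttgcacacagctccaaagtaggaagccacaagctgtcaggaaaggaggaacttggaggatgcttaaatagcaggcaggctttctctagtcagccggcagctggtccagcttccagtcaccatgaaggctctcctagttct
Mmp7, chr8:13132793-13133092, strand +: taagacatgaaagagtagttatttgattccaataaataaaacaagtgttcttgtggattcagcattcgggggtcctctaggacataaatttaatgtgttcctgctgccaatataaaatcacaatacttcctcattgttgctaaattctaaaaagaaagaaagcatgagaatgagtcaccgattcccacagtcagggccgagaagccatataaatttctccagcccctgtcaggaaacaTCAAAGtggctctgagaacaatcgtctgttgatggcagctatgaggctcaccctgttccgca
Pla2g2a, chr5:156359475-156359774, strand +: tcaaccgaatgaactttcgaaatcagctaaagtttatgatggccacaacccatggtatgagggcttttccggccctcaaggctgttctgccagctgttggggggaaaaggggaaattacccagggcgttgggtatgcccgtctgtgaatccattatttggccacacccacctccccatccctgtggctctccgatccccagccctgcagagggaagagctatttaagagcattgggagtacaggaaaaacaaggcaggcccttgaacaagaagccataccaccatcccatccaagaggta
Defa9, chr16:77184018-77184317, strand +: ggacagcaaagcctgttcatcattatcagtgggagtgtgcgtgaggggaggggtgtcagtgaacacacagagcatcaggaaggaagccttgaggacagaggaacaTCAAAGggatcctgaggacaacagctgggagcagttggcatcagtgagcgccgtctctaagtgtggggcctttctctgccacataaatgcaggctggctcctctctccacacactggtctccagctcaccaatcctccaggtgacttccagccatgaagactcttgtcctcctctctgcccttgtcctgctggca
RatNP-3b, chr16:77248928-77249227, strand -: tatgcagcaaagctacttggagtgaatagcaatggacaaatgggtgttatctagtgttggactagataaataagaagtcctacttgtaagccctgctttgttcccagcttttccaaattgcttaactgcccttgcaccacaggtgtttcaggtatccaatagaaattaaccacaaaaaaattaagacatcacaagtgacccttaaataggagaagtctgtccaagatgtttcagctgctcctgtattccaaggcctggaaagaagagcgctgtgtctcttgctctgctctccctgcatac
Defa11, chr16:77237992-77238291, strand -: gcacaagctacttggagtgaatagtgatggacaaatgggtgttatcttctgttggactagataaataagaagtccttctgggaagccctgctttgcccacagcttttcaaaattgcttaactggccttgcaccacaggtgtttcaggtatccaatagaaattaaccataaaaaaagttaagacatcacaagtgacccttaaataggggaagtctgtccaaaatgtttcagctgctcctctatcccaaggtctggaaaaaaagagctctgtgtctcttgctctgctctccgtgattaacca
The core stood once each in Lyz2, Mmp7 and Defa9, beginning at -205, -12 and -145 relative to the start. It was not among the letters of the windows of Pla2g2a, RatNP-3b and Defa11. Of all 33469 promoters of this length 16.1% held it on either strand, so that a match is a description of these letters and not a binding site. TATAAA on the strand of the gene was in 8.80% of promoters and, of these 6, stood in that of Mmp7 alone. Defa11 and RatNP-3b were 92.2% identical over 294 aligned bases. Identity was counted over aligned bases, with gaps left out. Among 8 promoters, other pairs ran from 58.9% (Defa11 with Pla2g2a) to 70.2% (Lyz2 with Mmp7). That range leaves out Lyz2 with Lyc2 and the pairs among Defa11, Np4 and RatNP-3b.

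Among the alpha-defensins, some genes of the cluster had high levels and others were listed at or near 0. Defa24, Defa8 and Defa6 held at least 1212 FPKM in every library, while Defa5, Defa7 and Defa10 were listed at 0 in every library and Defa11 reached 0.709 FPKM in a single one. In RefSeq all 11 alpha-defensin genes of the tables lie on chromosome 16 in the order Defa5, Defa24, Defal1, Defa6, Defa7, Defa8, Defa9, Np4, Defa10, Defa11 and RatNP-3b, so that genes listed at 0 lie between genes of high level. RefSeq gives Defa7 and Defa10 as RNAs with no protein. Of the 4 alpha-defensin rows outside the members, Defal1 ranged from 2572 to 12486 FPKM, Defa9 from 1378 to 6837 FPKM and RatNP-3b from 123 to 565 FPKM. Np4, a neutrophil defensin, reached 0.345 FPKM in 1 library and was listed at 0 in the others. Alpha-defensin genes resemble one another closely, and the sources used here do not say how reads shared between copies were counted, so the level of a single defensin is uncertain.

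Beside RatNP-3b, whose product is known from rat neutrophils, the 11 neutrophil markers (S100a8, S100a9, Mpo and others, Np4 among them) summed to 0.898 to 10.7 FPKM per library of either table, with Elane and Ctsg, enzymes of neutrophil granules, listed at 0 in every library. RatNP-3b stood at 123 to 565 FPKM over the same libraries, and its share of the summed alpha-defensin FPKM ran from 0.965% to 1.48%. The part of neutrophils in RatNP-3b was not tested.

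Defa24 was the most abundant member, an alpha-defensin that ranked between the second and the ninth most abundant gene of a library. It stood at 9253, 15105 and 8345 FPKM in FDG-decreased replicates 1 to 3, against 10037, 13288 and 11442 FPKM in FDG-increased replicates 1 to 3. The groups overlapped, and replicate 2 was highest in both. In the sham table it stood at 15243 FPKM in library X and at 10267 and 13558 FPKM in FDG-increased replicates 1 and 2, against 3829.9, 9228 and 8664 FPKM in sham replicates 1 to 3. The groups did not overlap, and sham replicate 1 was lowest.

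Defa8, a second alpha-defensin, stood at 6391, 7318 and 3746 FPKM in FDG-decreased replicates 1 to 3, against 6059.6, 8527 and 4829 FPKM in FDG-increased replicates. Replicate 3 was lowest in both groups, which overlapped. Defa8 in the sham table stood at 9977 FPKM in library X and at 6199 and 8700.3 FPKM in FDG-increased replicates 1 and 2, against 1815, 4487 and 4204 FPKM in sham replicates. These groups did not overlap.

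Defa6, the third measured alpha-defensin among the members, was less abundant than Defa24 and Defa8 in the mean of every group. It stood at 2787, 3356 and 3615 FPKM in FDG-decreased replicates 1 to 3, against 2974, 3699 and 4060.0 FPKM in FDG-increased replicates. Each FDG-decreased library lay below the FDG-increased library of its number, though the groups overlapped. Defa6 in the sham table stood at 5371 FPKM in library X and at 3043 and 3774 FPKM in FDG-increased replicates 1 and 2, against 1212, 3134 and 2876 FPKM in sham replicates. Here 1 FDG-increased library lay below sham replicate 2.

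Mmp7 was the least abundant of the 6 measured members. It stood at 26.5, 84.9 and 31.1 FPKM in FDG-decreased replicates 1 to 3, against 39.7, 90.1 and 78.7 FPKM in FDG-increased replicates. The FDG-decreased library was the lower in each of the 3 numbered pairs, and the gap was widest for replicate 3. In the sham table Mmp7 stood at 71.2 FPKM in library X and at 40.6 and 91.9 FPKM in FDG-increased replicates 1 and 2, against 14.4, 50.3 and 45.8 FPKM in sham replicates. The groups overlapped.

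Pla2g2a followed the same order within pairs. It stood at 1949, 3544 and 2425 FPKM in FDG-decreased replicates, against 2162, 3736 and 3808 FPKM in FDG-increased replicates. In the sham table it stood at 3076 FPKM in library X and at 2212 and 3812 FPKM in FDG-increased replicates 1 and 2, against 827, 2554 and 2289 FPKM in sham replicates. Sham replicate 1 was again the lowest library, and the groups overlapped.

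Lyz2, the lysozyme, followed the replicate number. It stood at 3642, 7298 and 2029 FPKM in FDG-decreased replicates 1 to 3, against 2925, 7411 and 1978 FPKM in FDG-increased replicates. Replicate 2 was high and replicate 3 low in both groups. In the sham table Lyz2 stood at 4794 FPKM in library X and at 2992 and 7562 FPKM in FDG-increased replicates 1 and 2, against 1690.1, 3619 and 2375 FPKM in sham replicates. The groups overlapped. The neighbouring lysozyme gene Lyc2, for which RefSeq lists Lyz2 as a synonym, had 0.953 to 4.78 FPKM over all libraries. The promoter windows of Lyz2 and Lyc2 share their last 89 bases, and how reads common to the pair were counted is not given in the sources used here. Macrophages also make lysozyme, and 11 of 12 macrophage markers were found in the tables, with Marco listed at 0 throughout. Beside Lyz2, the mean log2(FPKM + 1) of the 10 macrophage markers tested was 4.53, 4.45 and 2.68 in FDG-decreased replicates 1 to 3 and 4.65, 5.28 and 2.24 in FDG-increased replicates 1 to 3, so that replicate 3 was low in both. It was 5.14 in library X and 4.45, 3.71 and 4.26 in sham replicates. The summed level of the 11 was 76.4 to 356 FPKM in FDG-decreased and 47.3 to 536 FPKM in FDG-increased libraries of the RYGB table, and 396 to 604 FPKM in FDG-increased and 146 to 315 FPKM in sham libraries of the sham table. The part of macrophages in Lyz2 was not tested.

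**Figure D1:**
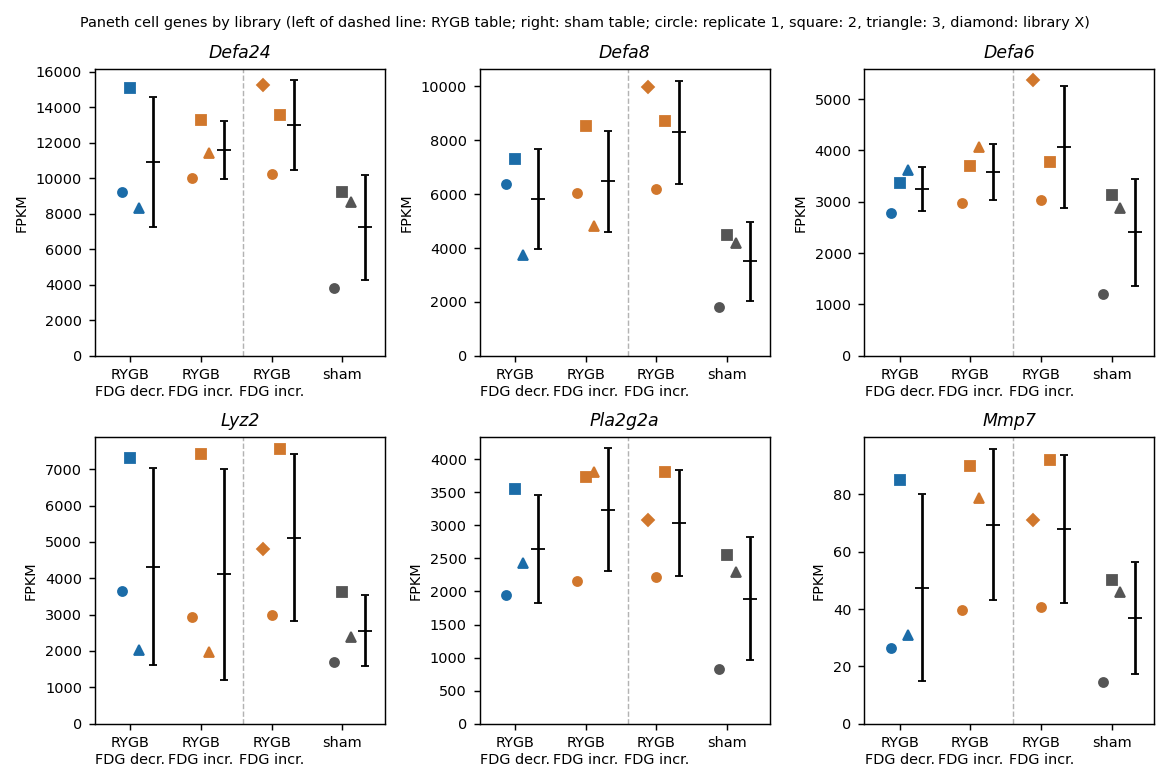
FPKM (linear axes from 0) of the 6 measured members in each library, with mean and SD of 3 libraries in black beside each group. Defa24 and Defa8 were higher in every FDG-increased library of the sham table than in any sham library, with sham replicate 1 lowest for each gene, while FDG-decreased and FDG-increased libraries overlapped for all 6.

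Without pairing by number, FDG-decreased and FDG-increased RYGB ileum did not differ beyond the spread between libraries for any of the 6 members. Log2 differences of FPKM + 1, which understate genes of low level, were -0.13 (SE 0.39) for Defa24, -0.17 (SE 0.43) for Defa8 and -0.13 (SE 0.35) for Defa6. They were -0.65 (SE 0.53) for Mmp7, -0.29 (SE 0.42) for Pla2g2a and 0.11 (SE 0.65) for Lyz2, the only member with a higher mean in FDG-decreased ileum. By limma with Benjamini-Hochberg adjustment over 10739 genes the adjusted p of all 6 was 1.00. None of the 10739 genes passed the threshold of 0.05 (0% called). The 110 genes at an unadjusted p under 0.05 were 0.363% of genes with a higher and 0.661% with a lower value in FDG-decreased ileum, and none of the 6 members was among them. No member had groups that did not overlap, which 1.95% of genes did with the higher and 1.26% with the lower values in FDG-decreased ileum. Of the 6 members 5 were lower in FDG-decreased ileum, where 44.8% of all genes were lower, and the median of the 6 was -0.15 against 0.02 for all genes.

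The replicate numbers paired the RYGB libraries, since libraries of the same number deviated together from their group means. Both libraries of replicate 1 came from lane 7 and both of replicate 2 from lane 4. Replicate 3 had lanes 5 and 4 by this numbering, and the part of lane in the pairing was not tested. Defa6, Mmp7 and Pla2g2a were lower in the FDG-decreased library of all 3 pairs, that is 3 of 6 members, against 12.7% of all genes. The 6 genes come from the same libraries and are not 6 separate observations. With the number as a block, limma gave Mmp7 a difference of -0.65 (SE 0.21) with an unadjusted p of 0.0149 and a Benjamini-Hochberg adjusted p of 0.309. In that fit Pla2g2a had a difference of -0.29 (SE 0.15) and a limma adjusted p of 0.641. Differences in the blocked fit were -0.13 (SE 0.13) for Defa6, -0.17 (SE 0.14) for Defa8, -0.13 (SE 0.16) for Defa24 and 0.11 (SE 0.14) for Lyz2. None of the 6 was among the 122 genes called with the block. With sequencing lane as a term the difference of Mmp7 was -0.23 (SE 0.36), and Defa8 and Defa24 turned to 0.14 and 0.12. FDG-decreased replicate 3 was the only library of lane 5, so that fit took its differences from the other RYGB libraries. The difference of Mmp7 was -1.16 without FDG-decreased replicate 2 and -1.01 without FDG-increased replicate 1. It was -0.34 without FDG-decreased replicate 1 and -0.43 without FDG-increased replicate 2. Beside these differences, all 7 tested genes of the proximal intestine list were higher in FDG-decreased ileum (median 1.8, 3 at an unadjusted and 0 at an adjusted limma p under 0.05). Of all genes 55.2% were higher, and 0.363% were higher at an unadjusted limma p under 0.05. The mean log2(FPKM + 1) of these 7 was 6.35, 5.62 and 6.11 in FDG-decreased and 4.54, 4.59 and 4.52 in FDG-increased replicates 1 to 3. The part of this shift in the members was not tested.

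FDG-increased RYGB ileum had higher means of all 6 members than sham ileum, though none passed the test. Defa8 averaged 8292 ± 1922 FPKM in FDG-increased and 3502 ± 1468 FPKM in sham ileum (SD, n = 3 each), a log2 difference of 1.32 (SE 0.42). Its limma p was 0.0116 before and 0.522 after Benjamini-Hochberg adjustment over 10801 genes. Defa24 averaged 13023 ± 2531 FPKM in FDG-increased and 7241 ± 2967 FPKM in sham ileum (SD, n = 3 each), a difference of 0.93 (SE 0.40), with a limma p of 0.0471 before and 0.630 after adjustment. Mmp7 differed by 0.97 (SE 0.51), Lyz2 by 0.97 (SE 0.44), Defa6 by 0.83 (SE 0.44) and Pla2g2a by 0.81 (SE 0.47), with limma adjusted p of 0.650 to 0.725. In this comparison 0.037% of genes were called, a total of 4. Groups that did not overlap, with FDG-increased higher, were found for 2 of the 6 members and for 10.7% of all genes. An unadjusted p under 0.05 with the higher value in FDG-increased ileum was found for the same 2 of 6 and for 6.15% of genes, and the opposite for 0 of 6 and 1.69% of genes. All 6 members and 64.7% of all genes were higher, and 35.3% of genes were lower.

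**Figure D2:**
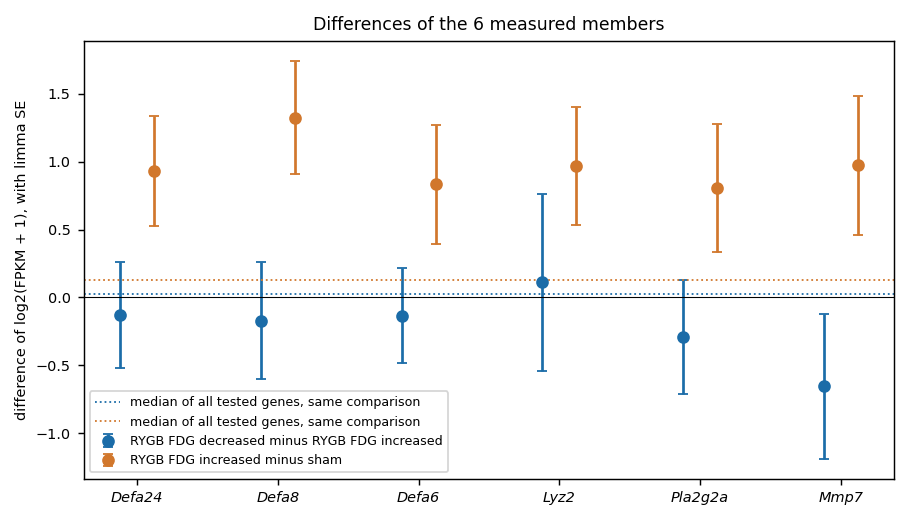
Difference of log2(FPKM + 1) of each measured member with its SE from limma without the replicate block. The comparisons are FDG-decreased minus FDG-increased RYGB ileum, and FDG-increased RYGB ileum minus sham. Dotted lines are the medians of all tested genes (0.02 and 0.13). The 6 values against sham lie between 0.81 and 1.32, and those between the FDG groups between -0.65 and 0.11.

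The size of the difference from sham rested in part on sham replicate 1. The median of the 6 members was 0.95 against a median of 0.13 for all genes, that is 0.82 above it. Without sham replicate 1 the median of the members was 0.47, which was 0.32 above that of all genes, and without any other single library it was 0.79 to 1.20. Scaling each library to the same sum of FPKM moved the members and all genes down together, to 0.50 and -0.27, and left the members 0.77 above all genes. With both changes the medians were -0.05 for the members and -0.32 for all genes, so that 4 of 6 members were below 0 while the members stayed 0.27 above all genes. The sham libraries were all from lane 7. With FDG-increased replicate 1, of the same lane by the numbering of the RYGB table, as the lone FDG-increased library and assumed to vary like the sham libraries, the median of the 6 was 0.42, and 0 of them had an unadjusted p under 0.05 by limma.

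As a share of all FPKM of a library, which does not depend on the scaling of a table, the 6 members took 3.90%, 4.44% and 4.25% in FDG-decreased replicates 1 to 3. They took 3.96%, 4.34% and 5.27% in FDG-increased replicates 1 to 3 and 6.30% in library X, against 1.65%, 4.66% and 4.39% in sham replicates 1 to 3. Sham replicates 2 and 3 therefore lay inside the range of the RYGB libraries, and sham replicate 1 lay below all of them. The mean share was 4.87% ± 1.25 in FDG-increased and 3.57% ± 1.67 in sham ileum of the sham table (SD, n = 3 each; two-sided exact permutation p = 0.6). In the RYGB table it was 4.19% ± 0.270 in FDG-decreased and 4.52% ± 0.672 in FDG-increased ileum (SD, n = 3 each; two-sided exact permutation p = 0.6). Beside these shares, the mean log2(FPKM + 1) of 6 tested distal ileum genes was 3.82 in sham replicate 1, against 6.55 and 7.09 in sham replicates 2 and 3, and that of the proximal list was 8.56, against 5.70 and 4.44. Over the RYGB libraries of both tables the distal list ran from 5.98 to 7.86. In mice Paneth cells become more numerous towards the ileum; the part of the sampled site in these shares was not tested. In bulk tissue, fewer Paneth cells and less RNA per Paneth cell cannot be told apart.

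**Figure D3:**
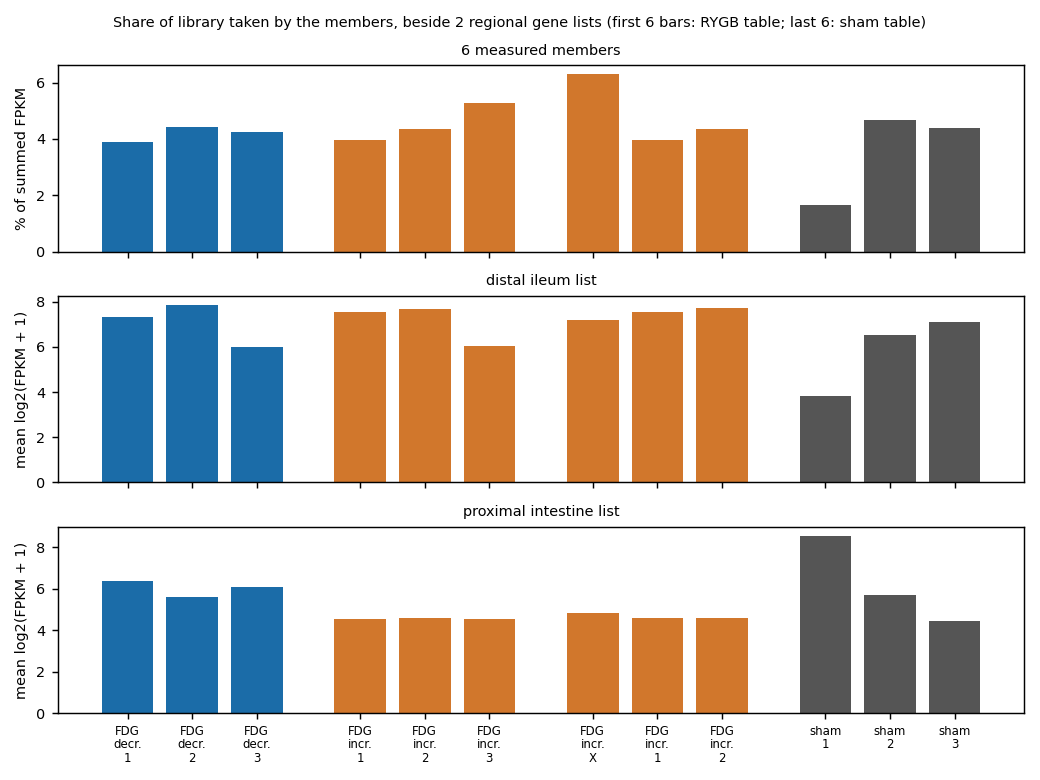
Share of the summed FPKM of each library taken by the 6 measured members (percent), above the mean log2(FPKM + 1) of the distal ileum and proximal intestine lists. Sham replicate 1 has the lowest share (1.65%), the lowest distal mean (3.82) and the highest proximal mean (8.56).

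The make-up of the alpha-defensin RNA was almost constant in sham ileum and varied more between RYGB libraries. The Defa8 share was lowest in replicate 3 of both RYGB groups. The labels put all sham libraries in lane 7 and the RYGB libraries in lanes 4, 5 and 7, and the part of lane was not tested. Of the FPKM summed over Defa24, Defa8 and Defa6, Defa8 made up 26.5%, 26.6% and 26.7% in sham replicates 1 to 3, although their summed level was 6857, 16849 and 15744 FPKM. Defa8 made up 34.7%, 28.4% and 23.9% in FDG-decreased replicates 1 to 3. It made up 31.8%, 33.4% and 23.8% in FDG-increased replicates 1 to 3 and 32.6% in library X. In the sham table its share was 32.6% ± 0.823 in FDG-increased and 26.6% ± 0.117 in sham ileum (SD, n = 3 each), groups that did not overlap. With 3 against 3 libraries an exact two-sided permutation test cannot go below 0.1. That was its p here and those of Defa6 and Defa24 (Benjamini-Hochberg adjusted over 8 such tests, 0.267 by exact permutation). The 3 shares are parts of the same sum, so a higher Defa8 share lowers the others and these 3 tests are not separate. Defa6 took 15.9% ± 1.55 in FDG-increased and 18.2% ± 0.470 in sham ileum, and Defa24 took 51.5% ± 1.48 in FDG-increased and 55.2% ± 0.566 in sham ileum (SD, n = 3 each). The difference of Defa24 depended on the sum used. Of the summed FPKM of all alpha-defensins, Defa24 took 30.2% to 35.6% in FDG-increased and 34.5% to 35.3% in sham libraries of the sham table. Its groups thus overlapped, while those of Defa8 and Defa6 stayed apart over that sum. Shares of that sum were not tested by permutation. FDG-increased replicate 3, which is in the RYGB table alone, had a Defa8 share below all sham libraries, so the higher share did not hold for every FDG-increased library.

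**Figure D4:**
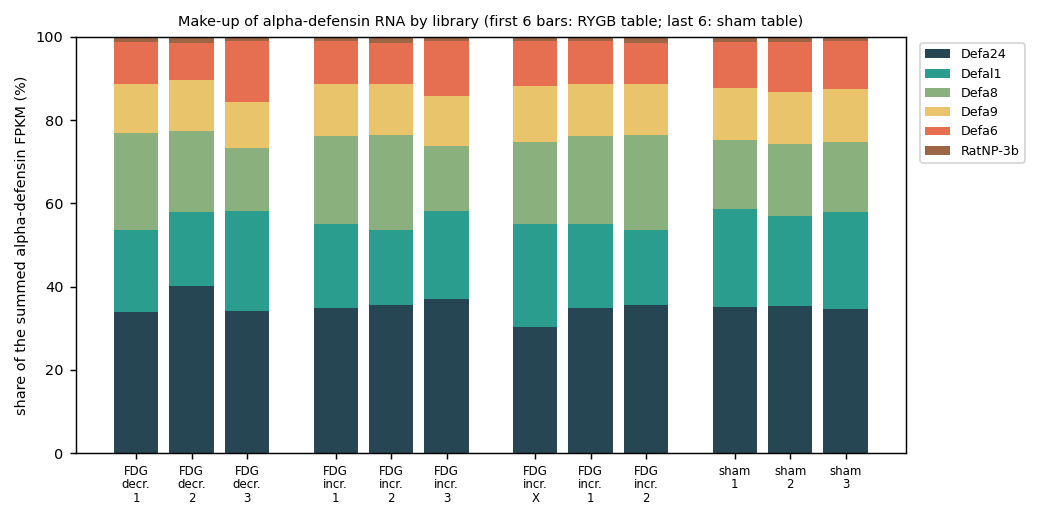
Share of each of 6 alpha-defensin genes in the summed alpha-defensin FPKM of a library (percent, stacked to 100). The sham bars are nearly alike, with Defa8 at 16.6% to 17.2% of all alpha-defensin FPKM, and replicate 3 of both RYGB groups has the smallest Defa8 segments (15.3% and 15.6%).

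Some ratios of members within a library followed the replicate number in the RYGB table. Defa8 per Defa6 was 2.29, 2.18 and 1.04 in FDG-decreased replicates 1 to 3 and 2.04, 2.31 and 1.19 in FDG-increased replicates 1 to 3. Libraries of the same number differed by 0.08 to 0.20 on the log2 scale, and those of unlike number by 0.0075 to 1.15, with a median of 0.91. In sham ileum the ratio was 1.5, 1.43 and 1.46, and in library X 1.86. Lyz2 per Defa6 was 1.31, 2.17 and 0.561 in FDG-decreased replicates 1 to 3 and 0.983, 2.0 and 0.487 in FDG-increased replicates 1 to 3. Same-numbered libraries differed in it by 0.12 to 0.41 on the log2 scale, and libraries of unlike number by 0.62 to 2.16, so that these ranges did not overlap. In sham ileum it was 1.39, 1.15 and 0.826. Of the 6 ratios computed, Lyz2 per Defa6 was the one whose same-number and unlike-number ranges were apart. Differences ran from 0.02 to 0.33 between same-numbered and from 0.11 to 0.68 between other libraries for Defa24 per Defa6, from 0.21 to 0.49 and from 0.26 to 1.48 for Lyz2 per Defa24, and from 0.06 to 0.48 and from 0.12 to 0.59 for Pla2g2a per Defa6. Mmp7 per 1000 FPKM of the 3 defensins was 1.44, 3.29 and 1.98 in FDG-decreased and 2.08, 3.53 and 3.87 in FDG-increased replicates 1 to 3, and same-numbered libraries differed in it by 0.10 to 0.97 on the log2 scale.

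**Figure D5:**
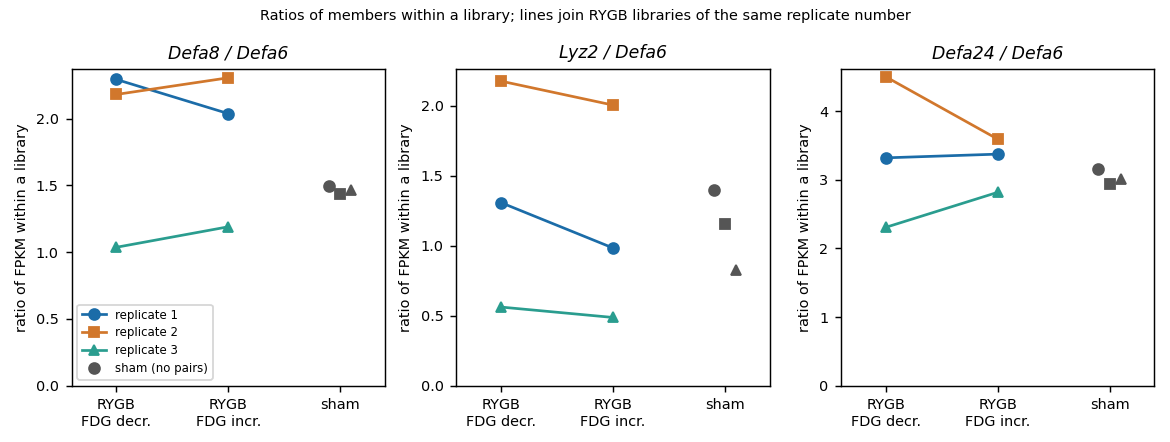
Ratios of FPKM of 2 members within a library (linear axes from 0), with lines joining RYGB libraries of the same replicate number and sham libraries in grey. For Defa8 / Defa6, replicate 3 lies lowest in both RYGB groups (1.04 and 1.19) and the sham libraries lie between 1.43 and 1.5.

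Most other Paneth cell products tested lay in the same direction as the members against sham. So did most markers of goblet cells and macrophages, and 64.7% of all genes. Of 15 other products, chosen with earlier results of these data known, 13 were found and 7 tested against sham. Of these 6 were higher and 1 lower in FDG-increased ileum, with a median of 0.97, 4 at an unadjusted limma p under 0.05 and 0 after Benjamini-Hochberg adjustment. Of all genes 6.15% were higher at an unadjusted limma p under 0.05. Reg3g, a lectin that binds bacteria, stood at 2152 FPKM in library X and 3789.6 and 3820.5 FPKM in FDG-increased replicates 1 and 2, against 57.7, 1344 and 556 FPKM in sham replicates. Itln1, an intelectin that binds microbial sugars, stood at 2174 FPKM in library X and 2033 and 2398 FPKM in FDG-increased replicates 1 and 2, against 826, 1386 and 1354 FPKM in sham replicates. Neither gene overlapped between groups, and sham replicate 1 was lowest for both. Their limma adjusted p were 0.499 and 0.565. Of all genes 10.7% did not overlap, with the higher values in FDG-increased ileum. Reg3b, a lectin related to Reg3g, stood at 1614, 983 and 1207 FPKM in the same FDG-increased libraries, against 234, 1916 and 566 FPKM in sham replicates. Guca2b, the hormone uroguanylin, stood at 184, 343 and 355 FPKM in those FDG-increased libraries, against 999, 207 and 133 FPKM in sham replicates. Both overlapped, with differences of 0.97 for Reg3b and -0.10 for Guca2b. Between the FDG groups 1 of 8 tested products was higher and 7 were lower in FDG-decreased ileum, with a median of -0.38 and 0 at an unadjusted or adjusted limma p under 0.05. Of all genes 44.8% were lower there.

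Genes of Paneth cell formation and the crypt niche, 16 tested of 18 listed, divided into 9 higher and 7 lower in FDG-increased against sham ileum, with a median of 0.03. Atoh1, the transcription factor of the secretory lineage, stood at 38.1 FPKM in library X and 54.6 and 48.4 FPKM in FDG-increased replicates 1 and 2, against 31.0, 20.8 and 18.2 FPKM in sham replicates (limma p 0.0101 before and 0.511 after Benjamini-Hochberg adjustment). Xbp1, a transcription factor of secretory cells, stood at 135, 129.8 and 164 FPKM in the same FDG-increased libraries, against 231, 119 and 116 FPKM in sham replicates, and these overlapped. Between the FDG groups the list divided into 8 higher and 8 lower in FDG-decreased ileum. In FDG-increased against sham ileum 64.7% of all genes were higher and 35.3% lower. At an unadjusted limma p under 0.05, 6.15% were higher and 1.69% lower. Crypt stem cell genes, 7 tested of 8, were lower in FDG-increased than in sham ileum for 6 of 7 (median -0.20, 0 at an unadjusted limma p under 0.05). Goblet cell genes, 7 tested of 8, were all higher in FDG-increased than in sham ileum (median 0.62, 1 at an unadjusted and 0 at an adjusted limma p under 0.05). Zg16, a goblet cell lectin, stood at 3030.0 FPKM in library X and 3127 and 3655 FPKM in FDG-increased replicates 1 and 2, against 2058, 1111 and 694 FPKM in sham replicates. Of 10 macrophage markers 8 were higher (median 1.10), all 8 at an unadjusted limma p under 0.05 and 0 after adjustment. All 7 adipocyte genes tested were lower (median -1.02), 2 at an unadjusted limma p under 0.05 and 0 after adjustment. Their mean log2(FPKM + 1) was 2.49, 5.03 and 3.47 in sham replicates 1 to 3. It was 2.14 in library X and 3.04 and 2.18 in FDG-increased replicates 1 and 2, so sham replicate 1 lay inside the FDG-increased range. The part of these cells in the members' differences was not tested. Beside these, all 9 epithelial markers were higher in FDG-increased than in sham ileum (median 0.53). Their sum was 8212 to 10257 FPKM in FDG-increased and 5104 to 8289 FPKM in sham libraries. Per epithelial FPKM the 6 members summed to 2.64, 4.51 and 3.73 in FDG-decreased replicates 1 to 3 and to 2.41, 3.73 and 4.82 in FDG-increased replicates 1 to 3. The ratio was 4.69 in library X, against 1.13, 4.52 and 3.51 in sham replicates 1 to 3, so that sham replicates 2 and 3 again lay inside the RYGB range.

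The genes whose levels followed the members most closely were sought among the 6330 non-member genes averaging 10 FPKM or more in each table. Likeness was the lower of Pearson's r in the 2 tables (6 libraries each) between the log2 level of a gene and the mean standardized log2 level of the 6 members, given as a description. Habp2, which codes for a hyaluronan-binding serine protease and is one of the 15 other products listed, came first, with r of 0.99 in both tables and Spearman's rho of 1.00 in the RYGB table and 0.94 in the sham table. Next came Bzw2, LOC290595, Defa9, Sort1, Ccdc117, Smim3, Defal1, Sord and Soat1, with a lower r of 0.90 to 0.93. RatNP-3b came 19th and the ribonuclease Rnase4 131st, while Itln1 came 651st and Reg3g 3000th, with r of 0.21 in the RYGB table. The tables share 2 libraries, and in the sham table sham replicate 1 was low for all 6 members.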

How the data were processed

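The authors deposited FPKM per gene and library in 2 tables of 6 columns, each scaled on its own. The submitters' processing notes list DESeq2 1.24.0, Cuffdiff, Cufflinks 2.2.1, STAR 2.6.0a and bcl2fastq 1.8.4, and their roles and settings are not given in the sources used here. These notes name hg19, a human build, although the symbols are those of rat, so coordinates are given for RefSeq promoters (GRCr8) alone. Per the labels' protocols, ribosomal RNA was depleted and a stranded total RNA kit was used. Libraries were grouped by title, and 25 symbols turned into dates were left out. The number of sample columns not used was 0. The sham table's FDG-increased columns were taken as members of their group only, since their numbers go against the other table. Low values showed no step that genes share between a pair of libraries (at most 6.93% of low genes), so whole reads could not be recovered, depth is unknown and no counting interval is given.

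In each table, genes averaging 1 FPKM or more were tested on the log2(FPKM + 1) scale with limma 3.58.1 in R 4.3.3 (empirical Bayes, intensity trend, robust variances, Benjamini-Hochberg over all genes, threshold 0.05), tested on simulated data. In the RYGB table same-numbered libraries had correlated deviations from group means (0.85, 0.76 and 0.77 across genes), so the numbers were taken to pair them. In the sham table, libraries with the same column number of that table had correlations of 0.35, -0.50 and -0.25. By the numbering of the RYGB table, FDG-increased replicates 1 and 2 had 0.23 and 0.66 with the sham libraries of their number. Library X had 0.12 with sham replicate 3. No block by that numbering was fitted. Replicates 1 and 2 of the RYGB groups also share a lane by number, and the labels do not say what else a number shares. Alternatives were the pseudocount, the filter, scaling, variance model, block, lane and leaving out each library. Named were all members found, up to 4 genes per list by highest mean FPKM, genes past the threshold, and the 10 genes of most like pattern; the remaining named genes (Lyc2, Rnase4, and the markers Mpo, Elane, Ctsg and Marco) were chosen after their values were seen. The members and the lists were chosen with earlier results of these data known.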

Additional observations from a re-analysis of the deposited data

How the results depend on the processing

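In the comparison of FDG-increased with sham ileum, 4 genes were called by limma with Benjamini-Hochberg adjustment. The count was 5 with neither trend nor robust variances, 1 with a pseudocount of 0.1 and 0 with no filter (1055 at an unadjusted limma p under 0.05). It was 1 with libraries shifted to the same median and 0 with quantile normalization (812 unadjusted). It was 2 with libraries scaled to the same sum of FPKM, also when the members and other alpha-defensins were left out of that sum. The sham table's own column number as a replicate block gave 39, although those numbers go against the other table. Leaving out 1 library gave 0 to 13, and equal sums without sham replicate 1, an alternative chosen after seeing the data like that of lane 7 alone, gave 1. No member was called in any of these settings: the limma adjusted p ran from 0.419 to 1.00, and 92 of 96 values kept their direction. The exceptions, with equal sums and without sham replicate 1, were Defa6 (-0.13), Defa24 (-0.0027), Mmp7 (-0.10) and Pla2g2a (-0.23). That scaling moved all genes down (median -0.32), and the median of the members lay 0.27 above that of all genes.

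Between the FDG groups 0 genes were called (110 at an unadjusted limma p under 0.05), 122 with the replicate block, and 0 to 1 leaving out 1 library. The block changed no call of a member. Of 90 values of the members 9 changed direction, and that of Defa24 with quantile normalization was 0.0. Their limma adjusted p ran from 0.309 to 1.00. Defa6 turned to 0.13 with quantile normalization. Defa8 and Defa24 turned to 0.14 and 0.12 with the lane term, in which FDG-decreased replicate 3 stood alone in its lane. Leaving out 1 library, Mmp7 ran from -1.16 to -0.34, Pla2g2a from -0.56 to -0.096, Defa6 from -0.26 to -0.027, Defa8 from -0.36 to 0.12, Defa24 from -0.39 to 0.038 and Lyz2 from -0.36 to 0.65. The causes were not tested. The lane term was not run for the sham table, where the lane of library X is not given; lane 7 alone was run in its place.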
